A study of Mus musculus with 2 samples.

Results

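The cornified region of the wild-type tongue section was the spot cluster that the authors numbered 1 of 3 in a Visium section from a mouse treated with 4NQO, a chemical carcinogen used to produce tumours of the mouth. Visium captures polyadenylated RNA from a tissue section on an array of barcoded spots, and a spot is a small area that can hold several cells of different types. The region was described by every gene in the authors' cluster table for that section, 865 genes of the 879 listed over both sections of the study. Its spots together held 856199 UMIs (unique molecular identifiers, each counting a captured transcript molecule), of which the listed genes took 72.0%.

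The section called WT carried the genotype Krt14-Cre(-); LSL-H3K36M, so it held the silent transgene for the mutant histone without the recombinase that releases it. The other section, called H3K36M, carried Krt14-Cre(+); LSL-H3K36M and received 4NQO as well. In that mouse the Krt14 promoter directs Cre to keratinocytes and their descendants, and the mutant histone is expected there only. There was 1 section per genotype, the labels give neither the age of the animals nor the time of treatment, and neither section was free of 4NQO.

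The WT section had 364 spots under tissue, 37219042 reads, a median of 4899 UMIs and 1919.5 genes per spot, and 36.2% of its reads in spots under tissue. Cluster 1 held 37.5% of the UMIs of the clustered spots, cluster 2 held 59.3% (1354340 UMIs) and cluster 3 held 3.19% (72775 UMIs). A listed gene had a median of 263 UMIs in cluster 1 and of 23 in cluster 3, so values against cluster 3 are the less precise. Levels are given below as rates, UMIs of a gene per 10000 UMIs of the cluster, with exact 95% Poisson intervals. Ratios of rates carry exact conditional 95% intervals, and all intervals cover counting error only, not differences between spots, sections or animals. Since the clusters were drawn from the same counts and there was a single section, no difference was tested, and a gene was counted as higher or lower where its rates differed at least 2-fold. A rate is a share of the RNA captured, so fewer cells of a type and less RNA per cell cannot be told apart.

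The upper surface of the mouse tongue is covered by filiform papillae, whose keratinocytes leave the basal layer, fill with keratin filaments and end as dead cornified cells. During cornification, a cell replaces its membrane by an envelope of cross-linked proteins such as loricrin, repetin, the small proline-rich proteins and the late cornified envelope proteins, to which lipids are attached. Filiform papillae also make hard keratins and keratin-associated proteins otherwise known from hair and nail. These proteins are rich in cysteine and are linked by disulphide bonds. Proteases then cut the junctions between the dead cells, which are shed.

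The 6 genes used to mark the cornified region had higher rates than in cluster 2 and rates nearer to those of cluster 3. They were chosen with these values known, so they describe the region and are no independent support for its label. Lor, which encodes the glycine-rich envelope protein loricrin, had rates of 147 (145 to 150), 36.3 (35.3 to 37.3) and 110.2 (103 to 118) in clusters 1, 2 and 3. Rptn, which encodes the envelope precursor repetin, had rates of 70.9, 12.5 and 48.9 in clusters 1, 2 and 3. Lce3b, a late cornified envelope gene, had rates of 38.9, 5.08 and 25.7. The hard keratin gene Krt36 had rates of 22.2, 4.47 and 17.0. Krt84, a type II hard keratin gene, had rates of 9.69 (9.05 to 10.4), 3.08 (2.79 to 3.39) and 8.79 (6.77 to 11.2). Krt34, a type I hard keratin gene, had rates of 5.56 (5.07 to 6.08), 0.185 (0.119 to 0.272) and 4.95 (3.46 to 6.85).

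All 6 markers were thus highest in cluster 1 in value and at least 2-fold above cluster 2, where 183 of the 865 listed genes (21.2%) were that much higher. Log2 ratios to cluster 2 ran from 1.65 for Krt84 to 4.91 for Krt34. Against cluster 3 none of the 6 reached 2-fold, and their log2 ratios lay between 0.14 and 0.60. Over all listed genes, 5.78% were at least 2-fold higher in cluster 1 than in cluster 3. The intervals of Krt84 and Krt34 overlapped between clusters 1 and 3, and those of Lor, Rptn, Lce3b and Krt36 did not. The markers therefore set clusters 1 and 3 apart from cluster 2, with small differences between clusters 1 and 3.

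**Figure D1:**
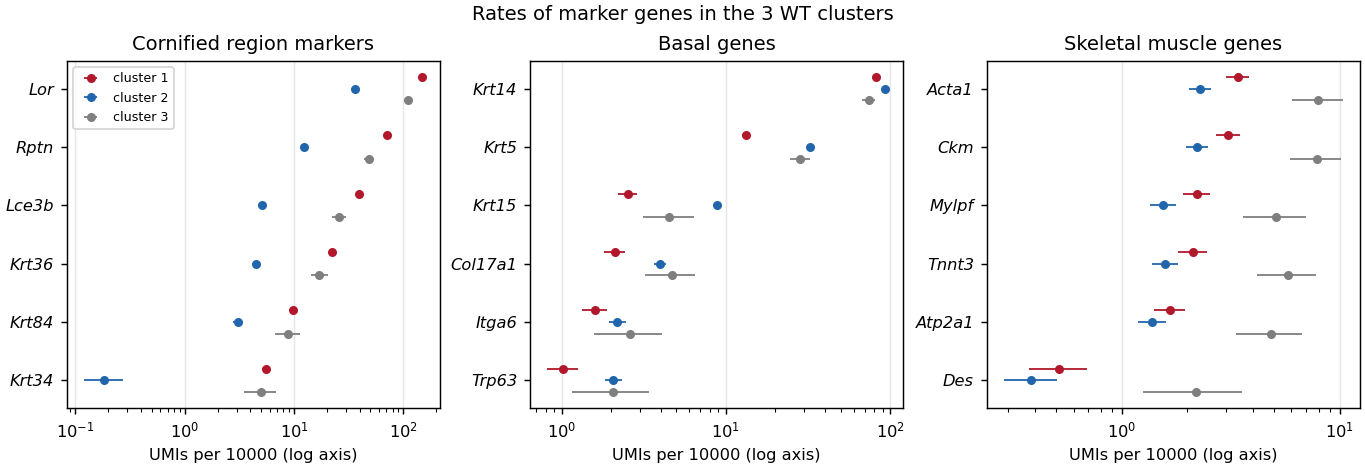
Rates (UMIs per 10000 UMIs of the cluster, log axis) of the 6 cornified region markers, 6 basal genes and 6 skeletal muscle genes in the 3 WT clusters. Points are the rates and bars their 95% Poisson intervals. Cluster 2 lies below both other clusters for every cornified marker, Krt5 is lowest in cluster 1 at 13.3, and each muscle gene is highest in cluster 3.

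Start sites of 3 markers are shown because these genes span the range from the most abundant marker to the one with the widest gap to cluster 2, and each holds a TATA motif close to its start. Each line gives the 250 bases before the start on the gene's own strand, from RefSeq on GRCm38.p6, with TATAAA and TGANTCA in capitals.
Lor, chr3:92083143-92083392, minus strand: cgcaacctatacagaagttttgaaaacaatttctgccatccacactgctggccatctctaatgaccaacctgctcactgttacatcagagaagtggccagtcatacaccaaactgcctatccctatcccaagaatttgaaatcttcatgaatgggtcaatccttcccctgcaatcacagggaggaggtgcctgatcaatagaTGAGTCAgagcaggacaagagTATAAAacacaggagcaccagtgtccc
Rptn, chr3:93393449-93393698, plus strand: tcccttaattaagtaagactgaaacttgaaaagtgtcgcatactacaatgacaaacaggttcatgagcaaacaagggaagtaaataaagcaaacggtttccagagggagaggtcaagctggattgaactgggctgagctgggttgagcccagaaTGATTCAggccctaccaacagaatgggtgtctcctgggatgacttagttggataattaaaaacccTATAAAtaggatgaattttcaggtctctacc
Krt34, chr11:100041555-100041804, minus strand: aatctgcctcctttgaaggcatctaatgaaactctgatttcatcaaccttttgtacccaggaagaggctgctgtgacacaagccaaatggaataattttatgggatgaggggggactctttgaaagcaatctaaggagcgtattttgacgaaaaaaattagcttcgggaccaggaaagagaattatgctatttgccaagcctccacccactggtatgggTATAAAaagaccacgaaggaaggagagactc

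The motif TATAAA began 27 bases before the start of Lor and 31 bases before the starts of Rptn and Krt34. TGANTCA, the palindromic site bound by AP-1 factors, began 48 bases before the start of Lor and 96 before that of Rptn. The windows searched ran from 250 bases before to 50 after each start, on both strands, and none of these matches overlapped another. Rptn also held AACCNGTT, a grainyhead-type motif, on the opposite strand. Krt84 held TATAAA only on the opposite strand and far from its start, and the windows of Krt36 and Lce3b held none of the 4 motifs searched, the last being GGGNGGGG. Over 27025 RefSeq promoters of the same length, 14.2% held TATAAA, 7.93% TGANTCA, 2.01% AACCNGTT and 32.9% GGGNGGGG on either strand. RefSeq promoters were matched to 145 of the 183 genes higher than in cluster 2 (79.2%), so no comparison of motifs over that set is given. A match describes these letters and is not a measured binding site.

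The single most abundant genes of the cornified region were largely mucosal and injury-type keratins. Krt13, which with Krt4 forms the keratin pair of suprabasal oral mucosa, was the most abundant gene with a rate of 406 (402 to 411) in cluster 1, 269.6 in cluster 2 and 355 in cluster 3. Krt4 ranked 6, with rates of 136, 119.5 and 109.4. Krt6a, Krt6b and Krt16, keratins of injured skin that tongue papillae make constantly, had rates of 168, 165 and 135 in cluster 1, each between 1.22 and 1.52 times its rate in cluster 2. These keratins were thus abundant in all 3 clusters and differed little between them. S100a8 and S100a9, the subunits of calprotectin, had rates of 202 and 116 in cluster 1. Their rates were 154 and 84.4 in cluster 2 and lower still, 99.3 and 67.5, in cluster 3.

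Lor ranked 5 among the 25 most abundant genes, and 9 others among them were also at least 2-fold above cluster 2. Slpi, which encodes a secreted inhibitor of leukocyte proteases, had rates of 111, 34.3 and 69.7 in clusters 1, 2 and 3. Cnfn, which encodes the envelope protein cornifelin, had rates of 46.2, 13.6 and 26.1. Calm4, a calmodulin-like calcium-binding protein of skin, had rates of 51.4, 20.02 and 43.0. Lce3c and Lce3f had rates of 46.1 and 40.6 in cluster 1 against 7.23 and 6.37 in cluster 2. The others were Rptn, Fam25c, Crct1 and 2310046K23Rik, the last with a rate of 60.0 in cluster 1 and 9.36 in cluster 2.

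Not all abundant genes were higher than in cluster 2. Fabp5, a fatty acid-binding protein of keratinocytes, had a rate of 94.1 in cluster 1 and 150.5 in cluster 2. Mt4, the metallothionein of stratified epithelia, had rates of 52.2 and 94.9 in these clusters. Krt14, a keratin of the basal layer, was still at 82.3 in cluster 1, beside 92.8 in cluster 2 and 73.9 in cluster 3. Together, the 25 genes took 25.5% of the UMIs of cluster 1, 17.8% of those of cluster 2 and 19.8% of those of cluster 3. Of the 25, 17 were also among the 25 most abundant of cluster 2 and 20 among those of cluster 3. UMIs count molecules by a tag at the transcript end, and when rates were divided by transcript length, 19 of the 25 stayed in the leading 25.

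**Figure D2:**
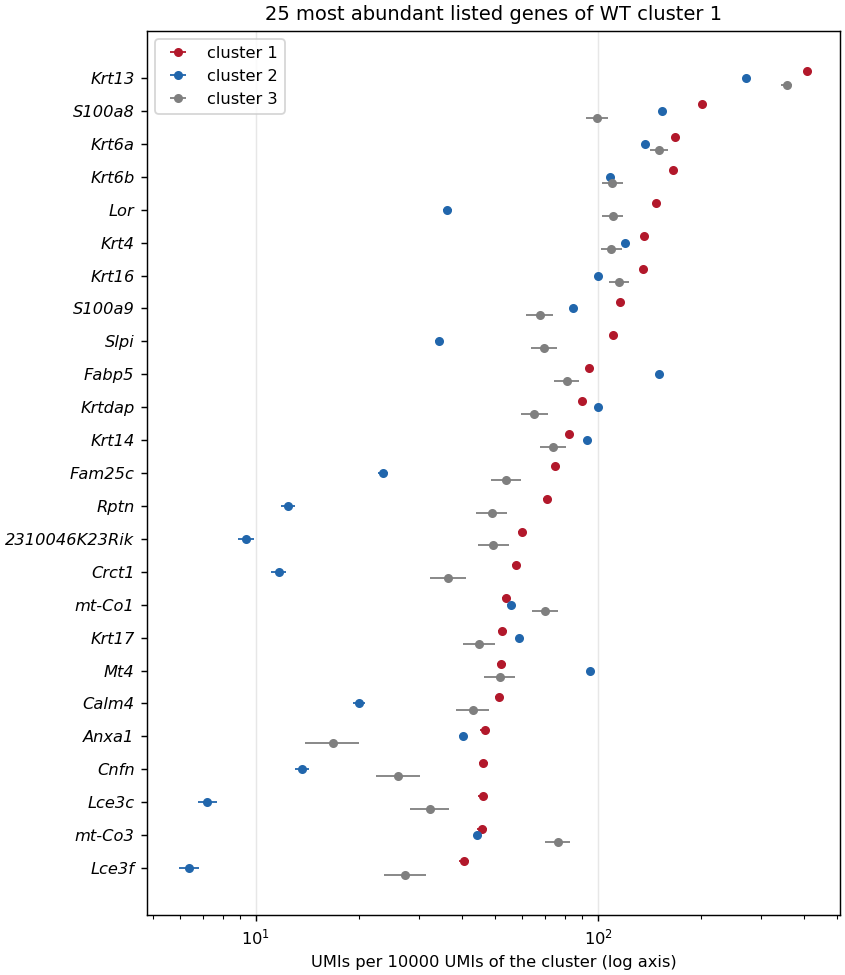
Rates (UMIs per 10000 UMIs of the cluster, log axis) of the 25 most abundant listed genes of cluster 1, in descending order, in the 3 WT clusters with 95% Poisson intervals. Krt13 leads at 406, and the widest gaps to cluster 2 belong to Lor, Rptn, 2310046K23Rik, Crct1, Lce3c and Lce3f.

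Against cluster 2, 183 genes were at least 2-fold higher in cluster 1 and 73 (8.44%) were at least 2-fold lower. The median log2 ratio of all 865 was -0.19, and ratios ranged from -2.16 to 6.02. The authors listed a gene only where its average reached 1 in some cluster, which equals a rate of 1.99, and 76 genes were listed through cluster 1 alone. Among those 76, 45 were at least 2-fold higher than in cluster 2, a direction the listing favours. Of the 483 genes at or above that level in both clusters, 56 (11.6%) were higher and 34 (7.04%) lower. When the 25 most abundant genes were left out of the cluster totals, all log2 ratios shifted up by 0.14 and the split became 202 higher and 43 lower. At the 2-fold limit itself stood Klk8 with a ratio of 2.002, Zfand6 with 2.02 and Junb with 2.05 on the inside, and Spink5 with 1.996, Dhrs1 with 1.99 and Mapk3 with 1.98 on the outside.

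Keratin-associated proteins, the cysteine-rich matrix in which hard keratin filaments are embedded, had the widest gaps to cluster 2. All 10 listed members were at least 2-fold higher, beside 21.2% of all listed genes, with a median log2 ratio of 4.98. Of these, 6 were listed through cluster 1 alone, and none reached the listing level in cluster 2. Neither the count nor the median of these genes by itself sets the family apart. Together they took 0.494% of the UMIs of cluster 1, 0.0218% of those of cluster 2 and 0.344% of those of cluster 3, a summed ratio of 22.7 to cluster 2 and of 1.44 to cluster 3. Krtap3-1 was the most abundant, with 1168 UMIs in cluster 1, 82 in cluster 2 and 73 in cluster 3, or rates of 13.6, 0.605 and 10.0. Krtap4-1 had the highest ratio to cluster 2 of any listed gene, 64.9 (27.3 to 202), resting on 205 UMIs in cluster 1 and 5 in cluster 2. Krtap9-1 had 204 UMIs in cluster 1, 7 in cluster 2 and 1 in cluster 3, and its ratio to cluster 3 of 17.3 had an interval from 3.08 to 688. Genes of this family resemble each other closely, so reads may have been split between copies, and the same holds for the late cornified envelope and small proline-rich genes.

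Hard keratins followed the same order. All 7 listed members of 14 were at least 2-fold higher in cluster 1 than in cluster 2, beside 21.2% of all listed genes. Their median log2 ratio was 4.89, but 1.98 over the members that reached the listing level in both clusters. That second value rests on Krt36 and Krt84 alone, with log2 ratios of 2.31 and 1.65. Both are among the markers chosen with these values known. The sum of all 7 was 0.530% of UMIs in cluster 1, 0.0848% in cluster 2 and 0.393% in cluster 3. Krt81 had rates of 4.71 in cluster 1, 0.148 in cluster 2 and 2.75 in cluster 3. Krt86, its close relative, had rates of 3.95 (3.54 to 4.39), 0.133 (0.0788 to 0.210) and 1.24 (0.565 to 2.35), and was the only one of the 7 past 2-fold against cluster 3 as well. Krt83 had rates of 2.25, 0.0738 and 1.24, and together with Krt86 it was listed through cluster 1 alone. The type II members lie together on chromosome 15 and the type I members Krt34 and Krt36 on chromosome 11 beside keratin-associated protein genes.

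Among the softer keratins of the mucosa, several less abundant ones differed from cluster 2 more than Krt13 and Krt4 did. Of 7 listed suprabasal keratins, 4 were at least 2-fold higher than in cluster 2 beside 21.2% of all listed genes, and none was lower. Their median log2 ratio was 1.33, but 0.59, under 2-fold, over the members that reached the listing level in both clusters. Krt76, a keratin of hard palate and gingiva, had rates of 12.9 (12.1 to 13.7), 1.09 (0.924 to 1.28) and 23.2 (19.9 to 27.0) in clusters 1, 2 and 3. It was therefore 11.8 times higher than in cluster 2 but lower than in cluster 3 in value. Krt78 had rates of 11.4, 2.72 and 8.79, Krt80 of 9.52, 2.66 and 6.87, and Krt10, the main suprabasal keratin of skin, of only 2.56, 1.02 and 3.57. Krt23 had nearly equal rates of 2.16 and 2.25 in clusters 1 and 2, and the sign of this difference turned when the 25 most abundant genes were left out of the totals. None of the 4 listed injury keratins reached 2-fold either way.

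Envelope genes were higher across every listed member of 3 families. They were 18 late cornified envelope genes, 11 small proline-rich genes and 6 loricrin-type and fused S100-type genes. All were at least 2-fold higher in cluster 1 than in cluster 2, beside 21.2% of all listed genes. Their 35 genes together took 7.84% (7.78 to 7.90), 1.81% (1.79 to 1.83) and 5.43% (5.26 to 5.60) of the UMIs of clusters 1, 2 and 3. The sum was thus highest in cluster 1 and its interval did not touch those of the others. Of the 35 genes, 3 were listed through cluster 1 alone, but others, such as Lce1l and Lce1j, were also under the listing level in cluster 2. Over the members that reached that level in both clusters, median log2 ratios were lower. They were 2.67 for the late cornified envelope genes, 1.41 for the small proline-rich genes and 2.02 for the loricrin-type and fused S100-type genes.

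Among the late cornified envelope genes, log2 ratios to cluster 2 ran from 2.49 for Lce1e to 4.03 for Lce1l, with a median of 3.12. The Lce3 genes were the abundant ones, and Lce3a had rates of 28.7, 3.65 and 17.0 in clusters 1, 2 and 3. Lce1l, by contrast, had rates of 2.65, 0.162 and 2.75, and Lce1j of 4.41, 0.273 and 4.67. Both were thus scarce in cluster 2 and nearly equal in clusters 1 and 3. Against cluster 3, 16 of the 18 had a ratio above 1 but only Lce1b passed 2-fold, with rates of 7.79 and 3.57 in clusters 1 and 3.

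The small proline-rich genes, whose products bridge other envelope proteins, had smaller ratios and higher levels in cluster 2. Their median log2 ratio to cluster 2 was 1.73, and they took 2.48% of UMIs in cluster 1, 0.820% in cluster 2 and 1.69% in cluster 3. Sprr1a had rates of 40.0, 11.2 and 22.8, and Sprr3 of 37.2, 14.3 and 20.7. Sprr2b had rates of 29.2 (28.1 to 30.4), 8.81 (8.32 to 9.32) and 31.3 (27.4 to 35.7), so its intervals in clusters 1 and 3 overlapped. Sprr2f and Sprr2e were the members past 2-fold against both clusters, with rates of 11.9, 1.63 and 4.26 for Sprr2f and of 7.58, 1.17 and 2.89 for Sprr2e.

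Fused S100-type proteins carry calcium-binding ends on long repeats and bind keratin filaments or the envelope. Tchh, which encodes the hair protein trichohyalin, had rates of 16.4, 1.89 and 20.5 in clusters 1, 2 and 3. Hrnr, which encodes hornerin, had rates of 4.61 (4.17 to 5.09), 0.436 (0.332 to 0.562) and 1.65 (0.852 to 2.88). Flg, which encodes filaggrin, had rates of 3.75, 0.332 and 3.85. Their rates were thus between 8.69 and 11.3 times those in cluster 2, while against cluster 3 only Hrnr passed 2-fold.

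Enzymes and scaffolds that assemble the envelope differed less than its structural genes. Of 7 listed members, 4 were at least 2-fold higher than in cluster 2, beside 21.2% of all listed genes. None was lower, and the median log2 ratio was 1.06. It was 0.997, just under 2-fold, over the members that reached the listing level in both clusters. Tgm3, a transglutaminase that cross-links envelope proteins and the most abundant of the group, had rates of 36.8, 19.3 and 24.9 in clusters 1, 2 and 3, a ratio of 1.91 (1.81 to 2.01) to cluster 2. Tgm1, the membrane-bound transglutaminase, had rates of 9.69, 4.64 and 5.63. Ppl, which encodes the scaffold protein periplakin, had rates of 8.90, 3.03 and 6.46, while its partner envoplakin, encoded by Evpl, had 3.70, 2.82 and 3.16.

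Genes for barrier lipids were higher as well. Of 10 listed members of 25, 8 were at least 2-fold higher in cluster 1 than in cluster 2, beside 21.2% of all listed genes, and none was lower, with a median log2 ratio of 1.30. The listing of 2 members came through cluster 1 alone. Alox12b, a lipoxygenase that prepares ceramides for attachment to the envelope, had rates of 8.11 (7.51 to 8.73), 2.74 (2.47 to 3.03) and 3.71 (2.44 to 5.40), and passed 2-fold against both clusters. Its partner Aloxe3 had rates of 2.74, 0.753 and 1.65. The chain-elongating enzymes Elovl1 and Elovl4 had rates of 9.67 and 6.48 in cluster 1 and of 4.42 and 3.12 in cluster 2. The ceramide synthase gene Cers3 had rates of 3.35 and 1.41, and the lipid transporter gene Abca12 of 2.17 and 0.849. Degs1, a desaturase of ceramide synthesis, was the only listed member lower in value than in cluster 2, at 4.01 against 5.25.

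Proteases that act on the cornified layer and their inhibitors were both higher. Of 13 listed proteases, 8 were at least 2-fold higher than in cluster 2, beside 21.2% of all listed genes, and none was lower. Their median log2 ratio was 1.20, but 0.97, under 2-fold, over the members that reached the listing level in both clusters. Asprv1, an aspartic protease that processes filaggrin, had rates of 36.9, 6.82 and 22.7 in clusters 1, 2 and 3. The kallikrein gene Klk14 had rates of 26.8, 7.56 and 19.4, and Klk10 of 26.3, 11.4 and 20.1. Klk9 had the widest gap to cluster 2 of the proteases, with rates of 5.55, 0.701 and 4.12. Ctsl, a lysosomal cysteine protease, had rates of 5.15, 1.39 and 2.75.

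Among 17 listed protease inhibitors, 8 were at least 2-fold higher and 1 lower than in cluster 2, beside 21.2% and 8.44% of all listed genes. Their median log2 ratio was 0.997. Besides Slpi, Wfdc12 had rates of 21.3, 5.83 and 13.3, and Csta1, a cystatin of the envelope, had 16.8, 4.89 and 10.4. Spink5, which restrains the kallikreins, had rates of 17.4, 8.71 and 11.0. The inhibitors were not uniform. Wfdc18 had rates of 0.876 in cluster 1 and 2.59 in cluster 2, and Serpinb5 and Cstb were also lower than in cluster 2 in value. Spink12 had 58 UMIs in cluster 1, 20 in cluster 2 and 54 in cluster 3, so that its rate in cluster 3 was 11.0 (7.42 to 16.1) times that in cluster 1.

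Junction genes were largely level. Of 16 listed desmosome and junction genes, 3 were at least 2-fold higher than in cluster 2, a share below the 21.2% of all listed genes, and none was lower, with a median log2 ratio of 0.02. Cdsn, which encodes corneodesmosin, the protein that holds cornified cells together, had rates of 27.6 (26.5 to 28.7), 3.57 (3.26 to 3.90) and 16.9 (14.0 to 20.2). The gap junction gene Gjb6 had rates of 3.92, 1.09 and 1.92, and Cldn4, a tight junction gene, of 2.88, 1.32 and 0.962. The desmosomal genes Perp, Dsp and Jup had rates of 37.3, 20.3 and 17.6 in cluster 1 beside 32.9, 22.7 and 17.8 in cluster 2. The sign for Jup turned with the other choice of totals.

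Of 7 listed epithelial antimicrobial genes, 6 were at least 2-fold higher and none lower than in cluster 2, beside 21.2% and 8.44% of all listed genes. Their median log2 ratio was 1.73. The beta-defensin gene Defb3 had rates of 18.1, 8.22 and 8.52 in clusters 1, 2 and 3, and Defb4 of 14.7, 4.44 and 13.1. Defb14 had 216 UMIs in cluster 1, 51 in cluster 2 and 2 in cluster 3. Its ratio to cluster 3 was 9.18, with an interval from 2.51 to 76.3. Bpifa5 had rates of 27.0, 7.32 and 19.9. Lyg1, which encodes a goose-type lysozyme, had rates of 4.50 (4.06 to 4.97), 0.199 (0.131 to 0.290) and 11.0 (8.72 to 13.7), so it was highest in cluster 3.

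Basal, metal-binding and ribosomal genes were among those lower in the cornified region than in cluster 2. The basal keratin genes Krt5 and Krt15 had rates of 13.3, 32.7 and 28.4 and of 2.52, 8.79 and 4.53, respectively, in clusters 1, 2 and 3. Of 6 listed basal adhesion and regulator genes, 2 were at least 2-fold lower than in cluster 2 and 4 at least 2-fold lower than in cluster 3. The shares over all listed genes were 8.44% and 8.21%. Dst, which encodes the hemidesmosome linker dystonin, had rates of 0.654, 2.13 and 2.34, and Trp63, the regulator of stratified epithelium, of 1.02, 2.06 and 2.06. Both were lower in cluster 1 than in either other cluster.

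Of 83 listed ribosomal protein genes, none was higher and 20 were at least 2-fold lower in cluster 1 than in cluster 2, beside 8.44% of all listed genes, and all 83 log2 ratios lay between -1.29 and -0.34. Together they took 9.21% of the UMIs of cluster 1, 16.7% of those of cluster 2 and 12.4% of those of cluster 3. Eef1a1, an elongation factor, had rates of 29.3, 48.5 and 38.6. The metallothionein genes Mt1 and Mt2 had rates of 7.36, 20.5 and 9.21 and of 5.90, 17.8 and 9.34, respectively, in the 3 clusters. Among 15 listed redox genes, 3 were lower and 1 higher than in cluster 2, beside 8.44% and 21.2% of all listed genes. Ftl1, the ferritin light chain, had rates of 2.70 and 10.8, Cat, which encodes catalase, of 1.37 and 3.74, and Gstm1, a glutathione transferase, of 3.29 and 7.49. The lowest ratio of any listed gene was that of Ifitm3, an interferon-induced membrane protein, with 41 UMIs in cluster 1 and 290 in cluster 2, a 4.47-fold (3.22 to 6.36) higher rate in cluster 2.

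**Figure D3:**
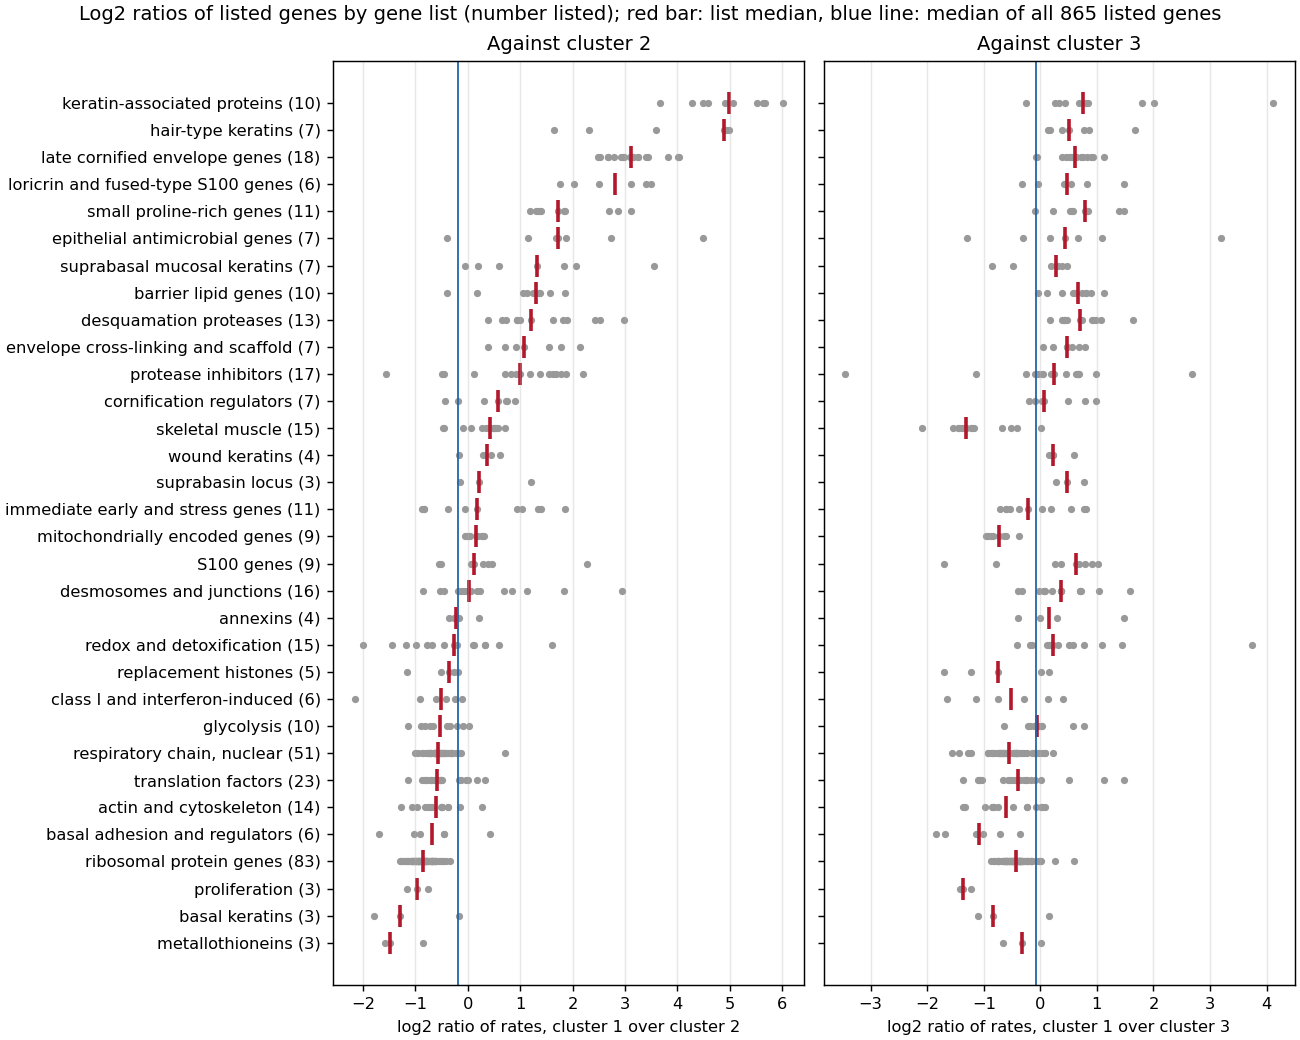
Log2 ratios of the rate in cluster 1 to that in cluster 2 (left) and cluster 3 (right) for the listed members of 32 gene lists. Points are genes, red bars list medians and blue lines the medians of all 865 listed genes, -0.19 and -0.07. Keratin-associated proteins lead on the left with a median of 4.98, and skeletal muscle genes lie at -1.31 on the right.

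Regulators of cornification differed little. Of 7 listed of 21, none reached 2-fold against either cluster, with median log2 ratios of 0.57 to cluster 2 and 0.06 to cluster 3. Klf4, a transcription factor needed for the skin barrier, had rates of 7.57, 4.59 and 8.11 in clusters 1, 2 and 3. Ovol1, a repressor of the basal state, had rates of 2.01, 1.07 and 1.92. Among 11 listed immediate early and stress genes, 4 were at least 2-fold higher than in cluster 2, beside 21.2% of all listed genes. The 4 included Ier3 with rates of 5.29, 1.45 and 3.02 and Dusp1 with 3.64, 1.43 and 3.57. The chaperone genes Hspa8 and Hspa1b were lower than in cluster 2 in value, with rates of 8.32, 14.9 and 12.1 and of 2.34, 4.16 and 1.37. The list median of 0.18 was above 0 while its summed rate in cluster 1 was 0.934 times that of cluster 2, and over the members that reached the listing level in both clusters the median was -0.22.

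Rates in cluster 3 lay closer to those of the cornified region. The 10th and 90th percentiles of log2 ratios were -0.86 and 0.79 against cluster 3 and -0.95 and 1.97 against cluster 2. In cluster 1, 50 genes (5.78%) were at least 2-fold higher and 71 (8.21%) at least 2-fold lower than in cluster 3, and the median log2 ratio was -0.07. Among the 553 genes that reached the listing level in both of these clusters, 13 (2.35%) were higher and 20 (3.62%) lower. Leaving the 25 most abundant genes out of the totals moved log2 ratios up by 0.11 and gave 63 higher and 54 lower. Few of these gaps were wide in relation to counting error, since the lower bound of the interval reached 2-fold for only 7 genes higher and 7 genes lower than in cluster 3.

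Among abundant genes, Anxa1, a calcium-dependent membrane-binding protein, had rates of 46.7 (45.2 to 48.1), 40.3 (39.2 to 41.4) and 16.8 (13.9 to 20.02) in clusters 1, 2 and 3. S100a8 was 2.03 (1.88 to 2.19) times higher than in cluster 3. Gsto1, a glutathione transferase of the omega class, had rates of 36.5, 33.6 and 17.2. In value, these 3 genes differed less between clusters 1 and 2 than between clusters 1 and 3. Aldh1a3, which makes retinoic acid, had 316 UMIs in cluster 1, 163 in cluster 2 and 2 in cluster 3, a ratio to cluster 3 of 13.4 (3.69 to 111). Ifi202b, an interferon-induced gene, had rates of 6.49, 3.37 and 1.79.

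Muscle and mitochondrial genes were on the other side. Of 15 listed skeletal muscle genes of 30, 11 were at least 2-fold lower in cluster 1 than in cluster 3, beside 8.21% of all listed genes. None of the 15 reached 2-fold either way against cluster 2. Their sum was 0.411% of UMIs in cluster 1, 0.367% in cluster 2 and 0.800% in cluster 3. Acta1, skeletal alpha-actin, had rates of 3.40 (3.02 to 3.81), 2.29 (2.04 to 2.56) and 7.97 (6.05 to 10.3), and Ckm, muscle creatine kinase, had 3.07, 2.21 and 7.83. All 9 listed mitochondrially encoded genes were lower in cluster 1 than in cluster 3 in value, and they took 2.03%, 1.93% and 3.19% of UMIs in the 3 clusters. Whether muscle RNA has a part in the other differences between clusters 1 and 3 was not tested.

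Markers of other cell types were largely missing from the list of the section. None of the markers of fibroblasts, endothelium, lymphocytes, red cells, salivary glands, nerve or fat was listed, which says only that none reached an average of 1 in any cluster. Of 5 macrophage and antigen-presentation markers, Cd74 and H2-Ab1 were listed, with rates of 1.24 and 1.20 in cluster 1 and 2.95 and 2.05 in cluster 2. Of 4 neutrophil markers, S100a8 and S100a9 were listed, both also made by keratinocytes, and Ly6g and Csf3r were not. The 6 listed basal markers of 7 took 1.03% of UMIs in cluster 1, 1.43% in cluster 2 and 1.16% in cluster 3, so basal transcripts were present in the cornified region as well.

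**Figure D4:**
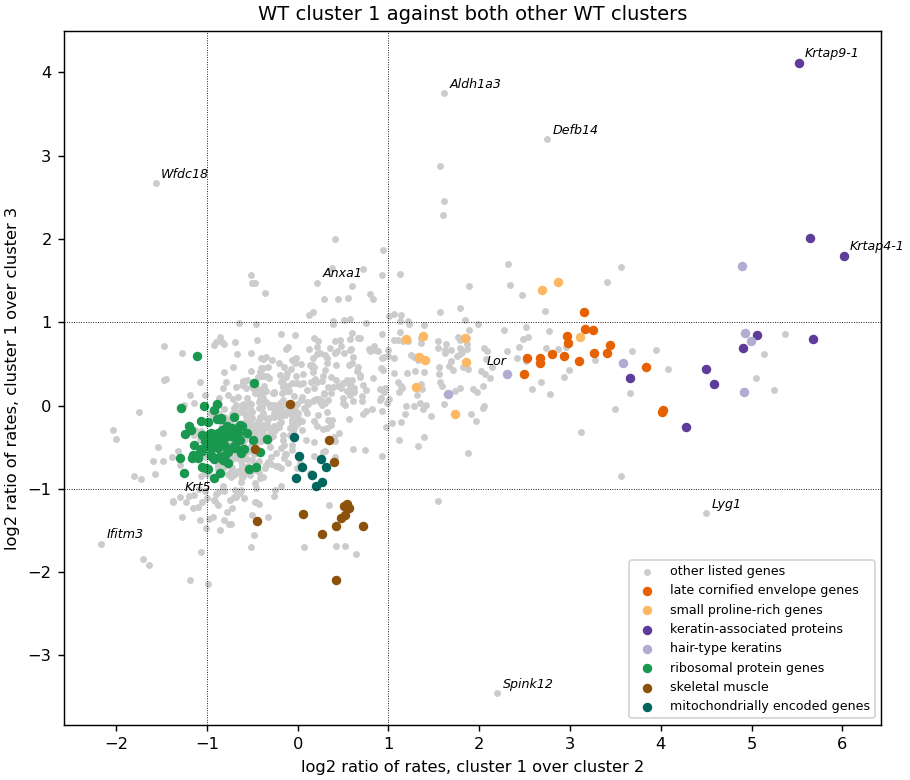
Log2 ratio of the rate in cluster 1 to cluster 2 (horizontal) and to cluster 3 (vertical) for the 865 listed genes, with 7 gene lists in colour. Dotted lines mark the 2-fold limits. Envelope and hard keratin genes lie to the right with small vertical values, ribosomal protein genes to the left, and muscle genes near 0 on the horizontal axis and low on the vertical one.

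Only 28 genes (3.24%) were at least 2-fold higher in cluster 1 than in both other clusters, and 18 (2.08%) were at least 2-fold lower than in both. Among the 28, 19 were listed through cluster 1 alone, and 4 reached the listing level in all clusters, namely Arg1, Defb3, Alox12b and Klk8. Arg1, the arginase of keratinocytes and macrophages, had rates of 15.6 (14.8 to 16.5), 4.22 (3.88 to 4.58) and 5.77 (4.16 to 7.80). Klk8, a kallikrein of skin, had rates of 6.06, 3.03 and 2.89. The lower bound of the ratio reached 2-fold against both clusters for 5 genes, Krtap9-1, Defb14, Aldh1a3, Plet1 and AA467197. Plet1, a surface protein of epithelial progenitors, had 258 UMIs in cluster 1, 134 in cluster 2 and 4 in cluster 3. AA467197 had rates of 8.07 (7.48 to 8.70), 2.72 (2.45 to 3.02) and 1.10 (0.475 to 2.17).

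Sprr2f, Sprr2e, Lce1b, Krt86, Hrnr, Krtap4-1 and Krtap2-4 of the families described above were also among the 28. Further members were Il1f5, an antagonist of the interleukin family in skin, with rates of 2.69, 0.539 and 0.824, and Gm2a, a lysosomal lipid-transfer protein, with 6.04, 0.916 and 2.75. Cpa4, a carboxypeptidase, had rates of 3.49, 0.295 and 1.10. These were thus genes of low to moderate level, and no gene among the 25 most abundant passed 2-fold against both clusters.

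On the low side of both clusters, 3 of the 18 genes reached the listing level in every cluster. They were Krt5, the nuclear protein gene Ptma, with rates of 4.75, 9.87 and 10.6, and Igfbp3, a binding protein of insulin-like growth factors, with 2.28, 4.59 and 6.32. The histone variant gene H2afz had rates of 1.69 (1.43 to 1.99), 3.77 (3.45 to 4.11) and 3.98 (2.67 to 5.72). It was 1 of 3 listed proliferation genes of 17, and all 3 were lower than in both clusters in value.

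Genes that were higher in the cornified region than in cluster 2 lay together in the genome. On chromosome 3, between Lor and Tchh (92080271 to 93449077 on GRCm38), all 38 listed genes of the epidermal differentiation complex were at least 2-fold higher than in cluster 2, with log2 ratios from 1.19 to 4.03. They took 8.71% of UMIs in cluster 1, 1.89% in cluster 2 and 6.13% in cluster 3, and 4 of the 38 passed 2-fold against cluster 3. Listing favours a higher ratio to cluster 2 for those of the 38 under the listing level there, such as Lce1l, Lce1j, Hrnr and Flg. Chromosome 3 as a whole had 42 of 79 listed genes higher than in cluster 2, or 53.2%, beside 21.2% of all listed genes. Of the 42, 38 were those of the epidermal differentiation complex, so this share does not describe chromosome 3 outside it.

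On chromosome 11, from 99550130 to 100105626, all 11 listed hard keratin and keratin-associated protein genes were higher, with a median log2 ratio of 5.06. On chromosome 16, from 88626786 to 88774206, 6 of 6 listed keratin-associated protein genes and genes with clone names were higher, with a median of 4.82. The type II keratin cluster of chromosome 15, from 101347444 to 101954287, was mixed, with 9 of 13 listed genes higher and Krt5 lower. In the kallikrein cluster of chromosome 7, from 43690418 to 43816359, 6 of 8 were higher. Apart from Krt36, no listed gene of the chromosome 11 and 16 intervals reached the listing level in cluster 2, so their listing favours a higher ratio. The limits of these intervals were set after the values were seen, and neighbours within a family share sequence.

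The same genes encode proteins of unusual composition, which the clustering did not use. Of 53 listed genes with over 10% cysteine codons, 48 were at least 2-fold higher in cluster 1 than in cluster 2, beside 21.2% of all listed genes, and 3 were lower, with a median log2 ratio of 2.96. Of the 53, 8 were listed through cluster 1 alone. Of the 20 that reached the listing level in both clusters, 16 were higher, beside 11.6% of all genes at that level. The 3 lower ones were Mt1, Mt2 and Wfdc18, so high cysteine content alone did not mark the genes of the cornified region. The median share of cysteine codons was 3.36% over the genes higher than in cluster 2, 1.59% over all listed nuclear genes and 1.35% over the genes lower than in cluster 2. Without keratin-associated, late cornified envelope and small proline-rich genes, the first of these was 2.54%. Krtap4-1 had 38.5% cysteine codons, Lce1l 22.96% and Krt34 7.40%.

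**Figure D5:**
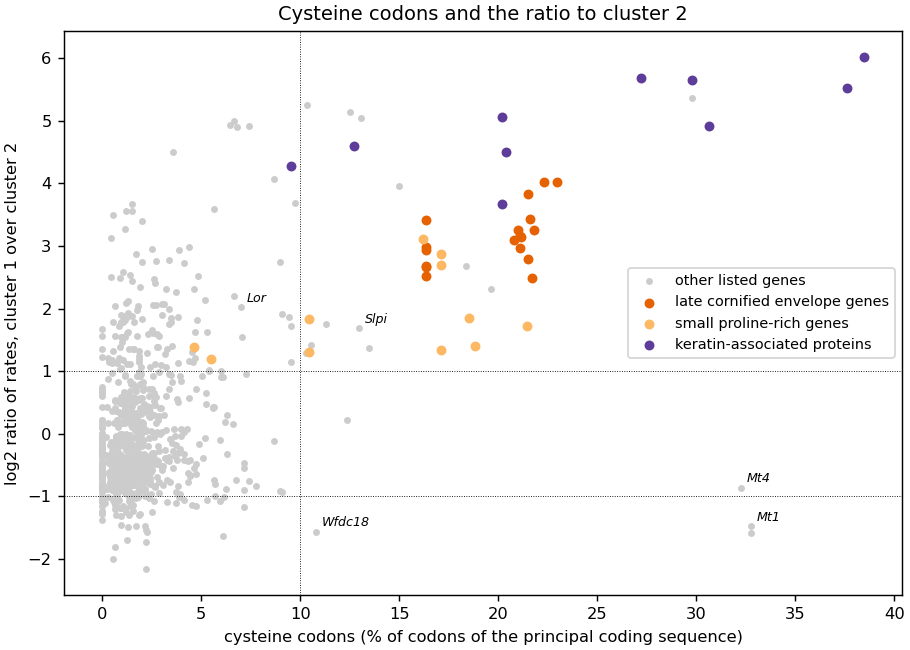
Share of cysteine codons in the principal coding sequence (percent, horizontal) and log2 ratio of the rate in cluster 1 to that in cluster 2 (vertical) for the listed nuclear genes with a coding sequence. Dotted lines mark 10% and the 2-fold limits. Of 53 genes to the right of 10%, 48 lie above the upper line, and the metallothionein genes and Wfdc18 lie below 0.

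Glycine and proline had their own genes. Lor had 55.4% glycine codons. Of 15 listed genes over 20% glycine, 11 were at least 2-fold higher than in cluster 2 and 1 lower. The shares over all listed genes were 21.2% and 8.44%. Of the 6 genes over 20% glycine that reached the listing level in both clusters, 2 were higher, beside 11.6% of all genes at that level. Of 13 listed genes over 20% proline, 12 were higher, 8 of 8 at the listing level in both clusters, among them Sprr2b with 41.8% and Sprr3 with 20.6%. Lysine went the other way, with a median of 4.89% over the genes higher than in cluster 2 and 8.55% over the genes lower. Families of near copies make up much of these sets, so their members are not independent.

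In the H3K36M section, where the listing level was a rate of 7.24 rather than 1.99, 284 of the 865 genes were listed as well. They included 46 of those higher in WT cluster 1 than in WT cluster 2. Of the 46, 38 had their highest rate in cluster 3 of that section and 8 in cluster 4, beside 74 and 56 of all 284. Lor had rates of 15.04, 25.5, 101.3 and 5.09 in H3K36M clusters 1 to 4, Rptn 13.9, 7.70, 40.3 and 1.32, and Krt84 10.7 in cluster 3 and no UMI in clusters 1 and 4. Arg1, by contrast, was highest in H3K36M cluster 4, at 19.8. H3K36M clusters 1 and 4 held only 17291 and 53037 UMIs, so low rates and missing UMIs there are imprecise. In that section 6.93% of reads lay in spots under tissue. The sections were scaled separately and clustered separately, and no difference between them was tested.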

How the data were processed

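Visium libraries of 1 WT and 1 H3K36M tongue section, grouped by sample title, were analysed from processed tables. Per the submitters' processing notes, Space Ranger and the mouse build GRCm38 (mm10) were used. The deposited tables are named as graph-based clustering, and no source used here gives its settings, the software version or the annotation. A deposited metrics table holds counts of spots, reads and genes, and qualities as a fraction. The deposited cluster tables hold, per the file headers, an average per gene and cluster (a signal), a p-value and a log2 fold change. The p-values, whose adjustment the headers do not state, were not used.

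The averages of a cluster were multiples of a single step (100% whole within 0.01), as UMIs divided by summed size factors would be. The deposited log2 fold changes were returned to within 1.2e-14 with 1 UMI added to counts and 1 to size factors on each side, which fixed the UMIs behind every average. Cluster totals also need the median UMIs of the clustered spots. The smallest value giving whole totals was 5027 for WT and 1380.5 for H3K36M, and rates rest on this reading. The deposited metrics give medians of 4899 and 763.5 per spot under tissue, the second well below the value used for H3K36M, whose rates scale with this choice. Ratios between clusters of a section do not. The number of spots per cluster was not used here.

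Rates, ratios and intervals were computed in Python 3.11.15 with numpy 2.4.6, pandas 2.3.3, scipy 1.17.1 and matplotlib 3.10.9, without a filter or pseudocount. On a simulated table of 865 genes all counts were returned, and intervals held a true ratio of 4 for 96% of 100 genes against cluster 2 and 98% against cluster 3. Coordinates and coding sequences (principal, then longest) are from the GENCODE annotation of the same build, which held all 865 gene IDs. Named genes were the markers, the 25 most abundant, those of highest and lowest ratio with at least 20 UMIs over both clusters, those next to the 2-fold limit, and up to 6 per list with any member against its majority. Other genes named among those past 2-fold against both clusters were chosen after their values were seen. The members and 41 gene lists were chosen with earlier results of these data known.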

Additional observations from a re-analysis of the deposited data

How the results depend on the processing

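No paired analysis was possible because there was 1 section per genotype and no test. With a limit of 1.5-fold, the count lower than cluster 2 went from 73 to 266, those higher and lower than cluster 3 to 162 and 184, and those higher and lower than both to 111 and 109. With 4-fold, the 6 counts in the order of the text became 85, 3, 9, 4, 3 and 0. Where the interval had to clear 2-fold, the count lower than cluster 2 was 27, those higher and lower than cluster 3 were 7 and 7, and those for both were 5 and 0. With an average of at least 1 in both clusters, the 6 counts were 56, 34, 13, 20, 4 and 3. Of lists with 3 or more such members, 7 rather than 12 had a median past 2-fold against cluster 2. Hard keratins, still at 1.98, and keratin-associated proteins dropped out for want of members. The medians of suprabasal keratins, envelope enzymes and scaffolds, and proteases fell under 2-fold. With totals that leave out the 25 most abundant genes, 43 genes were lower than cluster 2 and 9 lower than both. The share of the most abundant genes was 16.8% for 10 genes, 33.5% for 50, 23.4% for the 25 chosen per kb and 35.4% of listed UMIs. The cause of these moves was not tested, beyond the stricter or looser limits themselves. Small differences near 0 turned sign under those totals, such as those of Sprr2b, Flg and Klf4 against cluster 3 and of mt-Co1, Krt23 and Jup against cluster 2. Named gene ratios taken directly from the deposited averages were the same for all 438 values. This was fixed in advance, since cluster totals were proportional to the summed size factors, so it is no check on the ratios. Depth limits cluster 3 most, where a listed gene could rest on 1 UMI.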

Other observations

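The genes of the class I and interferon-induced list were lower in the cornified region than in cluster 2 in value. All 6 listed members of 15 had a log2 ratio below 0, from -2.16 to -0.12, beside 494 of all 865 listed genes. Of the 6, 1 was at least 2-fold lower, Ifitm3, beside 8.44% of all listed genes. The ratio nearest 0, that of Ly6d, became 0.02 when the 25 most abundant genes were left out of the totals. Ifi202b, an interferon-induced gene that was not on this list, had a higher rate in cluster 1 than in cluster 2. H2-K1, a class I heavy chain, had rates of 5.72 (5.23 to 6.25), 8.78 (8.29 to 9.29) and 9.62 (7.498 to 12.2) in clusters 1, 2 and 3. B2m, the light chain, had rates of 6.83, 9.17 and 6.18.

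Genes of energy metabolism were mixed. Of 51 listed nuclear genes of the respiratory chain, 1 was at least 2-fold lower than in cluster 2 and none was higher. The shares over all listed genes were 8.44% and 21.2%. The median log2 ratio of the 51 was -0.57, while the 9 mitochondrially encoded genes had a median of 0.15, beside -0.19 over all listed genes. The 10 listed glycolysis genes had a median of -0.53 against cluster 2. Against cluster 3 their median of -0.06 became 0.04 with the other choice of totals. Of 14 genes that mark simple or glandular epithelium, only Cldn4 was listed.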
